A study of Bos taurus with 38 samples.

Results

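The 6 genes described here are the protein-coding genes of cattle mitochondrial DNA that encode subunits of respiratory complexes III, IV and V. They are defined by that role, with no measured value in the definition, and are 6 of the 27607 genes counted in each library. All were found by identifier: CYTB (ENSBTAG00000043550), COX1 (ENSBTAG00000043561), COX2 (ENSBTAG00000043556), COX3 (ENSBTAG00000043560), ATP6 (ENSBTAG00000043584) and ATP8 (ENSBTAG00000043564). Libraries were made from 19 cattle cumulus-oocyte complexes collected from antral follicles of ovaries of slaughtered animals, with 1 library from the oocyte and 1 from the cumulus cells around it, which gave 38 libraries. Every complex had been exposed to brilliant cresyl blue (BCB), a dye that oocytes with active glucose-6-phosphate dehydrogenase turn colorless. Oocytes that stayed blue, read as fully grown, were classified as BCB positive (9 complexes), and oocytes that lost the color, read as still growing, as BCB negative (10 complexes). The class was called on the oocyte by eye, and cumulus cells carry the class of their oocyte. Breed, age and animal of each complex were not in the labels, so complexes may share an animal and the p-values measure the spread between complexes as collected.

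Mitochondrial DNA is transcribed as long RNAs that are cut into single messages inside the organelle, and it encodes a few core subunits of the respiratory chain while nuclear genes encode the rest. CYTB is the electron-carrying core of complex III, COX1, COX2 and COX3 form the catalytic core of complex IV, the oxidase that hands electrons to oxygen, and ATP6 and ATP8 belong to the membrane sector of complex V, the ATP synthase. Oocytes hold a very large store of mitochondria for the embryo, and cumulus cells supply the oocyte with pyruvate and ATP. In the RefSeq gene order of cattle mitochondrial DNA, COX1 is followed by COX2, ATP8, ATP6 and COX3, and CYTB is apart from them near the end. ATP8 and ATP6 overlap and share 1 message, so reads in their overlap cannot be assigned with certainty, and copies of mitochondrial sequence in the nuclear genome can also share reads with all 6 genes. Gene lengths were not used here, so counts are compared between libraries for the same gene or for the same pair of genes, and not from gene to gene.

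Total counts ran from 8886070 to 29810354 in oocyte libraries and from 1103200 to 10430148 in cumulus libraries. The cumulus totals of BCB negative complexes, with a median of 2.25e+06, lay below those of BCB positive complexes, with a median of 5.85e+06, although their ranges overlapped. The oocyte markers ZP2 and ZP3, the only 2 of 12 listed with a symbol, summed to 2713 to 5051 counts per 1000000 total counts (CPM) in oocytes and to at most 65.3 CPM in cumulus cells, which matched the labelled compartments. That sum reached 1.37 CPM in cumulus cells of BCB positive complexes and 65.3 CPM in those of BCB negative complexes, with the highest values in complexes 66 and 68. The part of oocyte RNA in the cumulus differences below was not tested. The 11 cumulus markers found of 12 listed summed to 13814 to 32978 CPM in cumulus cells of BCB positive complexes and to 6006 to 17923 CPM in those of BCB negative complexes, and 0 of the 11 were called between the classes in edgeR, with 4 at an unadjusted p under 0.05, a level that 2299 of all 12313 genes tested reached. Of these 4, named after their values were seen, FSHR, CYP11A1 and FOXL2 had log2 fold changes of 0.37 to 0.69, BCB positive over BCB negative, while KRT18, a keratin, was at -3.78 (SE 0.81, FDR 0.0151 in edgeR), the direction of the members described below. The part of these markers in the member differences was not tested. In oocyte libraries the same sum ran from 56.8 to 807 CPM except in the BCB positive oocyte 72, which had 3240 CPM. The complexes carry numbers in 3 runs, 6 to 24 (3 BCB positive and 1 BCB negative), 65 to 74 (6 and 3) and 86 to 91 (0 and 6), and in the last run class and run cannot be told apart. The labels do not say whether a run is a batch.

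The 6 genes together took more of the counts in cumulus cells than in oocytes, and more in cumulus cells of BCB negative complexes than in those of BCB positive complexes. Their share was 0.960% ± 0.413 (SD, n = 9) in cumulus cells of BCB positive complexes and 4.27% ± 2.46 (SD, n = 10) in those of BCB negative complexes. In oocytes the shares were 0.116% ± 0.058 (SD, n = 9) for BCB positive and 0.106% ± 0.033 (SD, n = 10) for BCB negative. By mean share the order was therefore cumulus cells of BCB negative complexes, cumulus cells of BCB positive complexes, and then oocytes of either class. The values of the oocyte classes overlapped. Those of the cumulus classes did too, at 0.740% to 8.27% in BCB negative and 0.534% to 1.64% in BCB positive complexes. The BCB negative complexes inside the BCB positive range were 88 and 89, with cumulus totals of 4539428 and 8013318. In bulk samples such as the cumulus cells, a change in the share of cells of 1 kind and a change in the RNA per cell cannot be told apart.

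**Figure D1:**
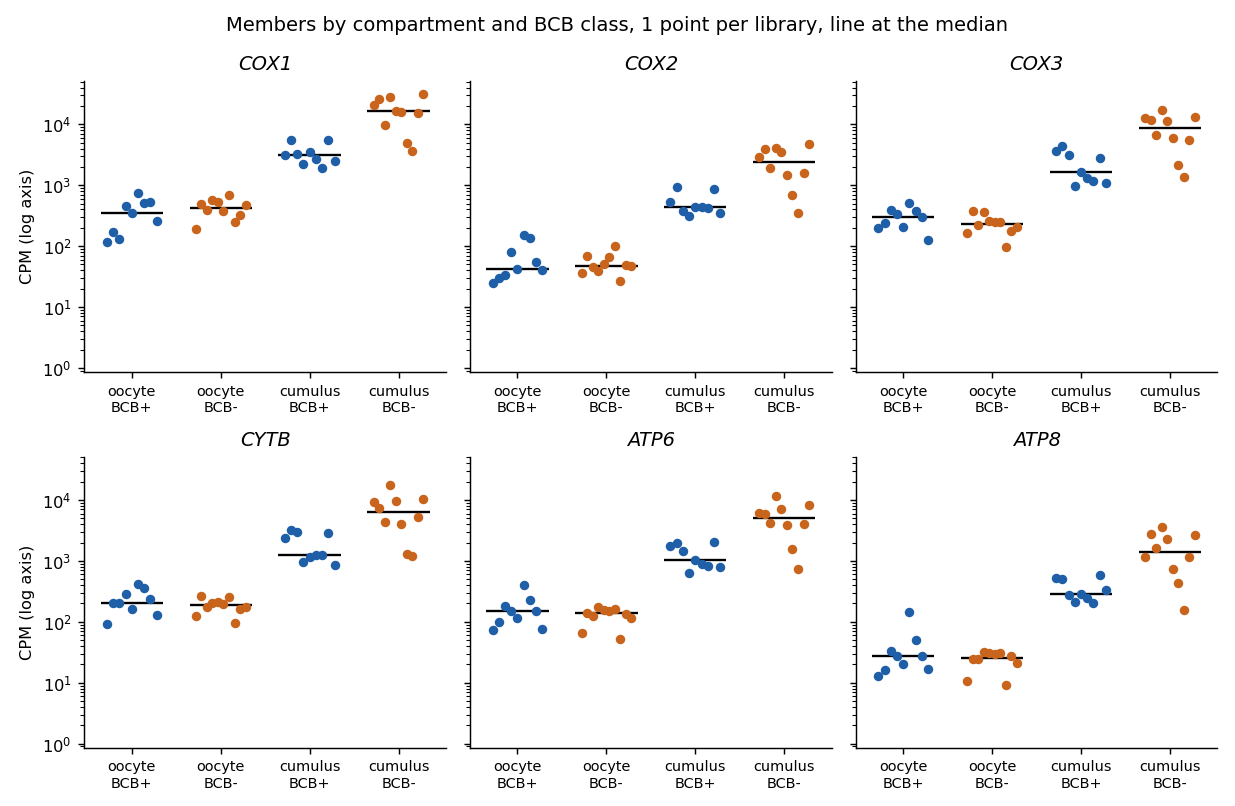
CPM (log axis) of each gene in the 38 libraries, 1 point per library and a line at the group median, for oocytes and cumulus cells of BCB positive (blue) and BCB negative (orange) complexes. All 19 cumulus points of a gene lie above all of its 19 oocyte points, and 8 of the 10 BCB negative cumulus points lie above the highest BCB positive cumulus point for each gene.

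All 6 transcripts were lower in cumulus cells of BCB positive complexes than in those of BCB negative complexes, and COX1, COX2, ATP6 and ATP8 passed the test. These 4 of 6 genes stand against 0.52% of the 12313 genes tested that were lower (0.56% in either direction) at the same threshold, a false discovery rate (FDR) under 0.01 in edgeR's quasi-likelihood test, and the median log2 fold change over all genes tested was -0.01. The fold changes below are BCB positive over BCB negative on the log2 scale after TMM scaling, with the standard error (SE) of the fit, and the CPM values are relative to the library total before that scaling.

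CYTB, the complex III core, had a lowest, median and highest level of 853, 1267 and 3231 CPM in cumulus cells of BCB positive complexes and of 1194, 6316 and 17676 CPM in those of BCB negative complexes. The classes overlapped through BCB negative complexes 88 and 89, and the highest level was in complex 68. CYTB had a log2 fold change of -2.65 (SE 0.55), with an FDR of 0.0136 in edgeR's test, which missed the threshold.

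COX1 carries the heme and copper center of complex IV at which oxygen is reduced. Its levels were 1901, 3136 and 5454 CPM (lowest, median and highest) in cumulus cells of BCB positive complexes and 3587, 16460 and 31152 CPM in those of BCB negative complexes. Complexes 88 and 89 were the only BCB negative complexes within the BCB positive range, and 7 of the 9 BCB positive complexes lay below every BCB negative one. The log2 fold change of -3.05 (SE 0.45, FDR 0.00272 in edgeR) made COX1 the gene with the sixth lowest p among all genes tested. COX2, which takes electrons from cytochrome c, ran from 315 over a median of 435 to 941 CPM in BCB positive complexes and from 349 over 2393 to 4787 CPM in BCB negative complexes. Its lowest BCB negative complexes, 88 and 89, lay inside the BCB positive range, and the log2 fold change was -2.98 (SE 0.50, FDR 0.0065 in edgeR). COX3, a structural subunit of the same core, ran from 955 over 1651 to 4372 CPM in BCB positive and from 1380 over 8846 to 17280 CPM in BCB negative complexes. Its log2 fold change of -2.67 (SE 0.53) had an FDR of 0.0114 in edgeR and missed the threshold.

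ATP6 forms part of the proton channel of the ATP synthase. Its levels in cumulus cells were 638, 1026 and 2013 CPM (lowest, median and highest) in BCB positive complexes and 740, 5050 and 11817 CPM in BCB negative complexes, and its log2 fold change was -2.79 (SE 0.50, FDR 0.00695 in edgeR). ATP8, a small subunit of the same membrane sector, ran from 201 over 284 to 592 CPM in BCB positive complexes and from 155 over 1407 to 3562 CPM in BCB negative complexes. The lowest ATP8 level of all 19 cumulus libraries was in the BCB negative complex 89, so the classes overlapped at the low end, while 8 of the 10 BCB negative complexes lay above the highest BCB positive one. The log2 fold change of ATP8 was -2.95 (SE 0.55, FDR 0.00822 in edgeR).

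The mean CPM was between 3.77 (CYTB) and 5.15 (COX1) times as high in cumulus cells of BCB negative complexes as in those of BCB positive complexes. The spread was also wider among BCB negative complexes, with a standard deviation of log2 CPM of 1.05 (COX1) to 1.40 (ATP8) against 0.53 (COX1) to 0.84 (COX3) among BCB positive complexes. The 7 mitochondrially encoded subunits of complex I moved in the same direction, with log2 fold changes from -3.37 to -3.06, and 7 of 7 passed the test.

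With DESeq2 all 6 genes were called, at log2 fold changes of -3.07 to -2.67, where 2.43% of all genes tested were called lower. With no filter on low counts COX1, COX2 and ATP6 were called and ATP8, at an FDR of 0.0112 in edgeR, was not, where 0.57% of 25612 genes were called lower. Within the run of complexes 65 to 74, with 6 BCB positive and 3 BCB negative complexes, the log2 fold changes were -3.99 to -3.73. All 6 genes were called, against 0.674% of all genes called lower. In this run the BCB negative cumulus totals, 1103200 to 1650795, lay below all BCB positive ones, 4386946 to 10430148. Class and library total therefore cannot be told apart within it. With the library total as a covariate over all 19 cumulus libraries, however, the log2 fold changes shrank to between -1.55 (COX1) and -0.61 (CYTB). No member was then called by edgeR, 4 of the 6 had an unadjusted p under 0.05, and 2 genes were called in the whole transcriptome. The number of members called also depended on single libraries. COX1 was called in 18 of the 19 fits that left out 1 cumulus library and CYTB in 2 of 19, and the direction held in every one of them. No member was called without the BCB positive complex 24, only COX1 was called when leaving out any 1 of the BCB positive complexes 17, 19, 69, 70, 71, 72 and 74 or the BCB negative complexes 65, 86 and 91, 2 members were called without 6, and all 6 were called without 88 or without 89. The calls over all 12313 genes moved with them, from 69 to 6 without complex 24, to between 7 and 21 in the fits in which COX1 alone was called, to 33 without complex 6, and to 138 and 160 without 88 and 89, so the loss of calls was not particular to the members.

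**Figure D2:**
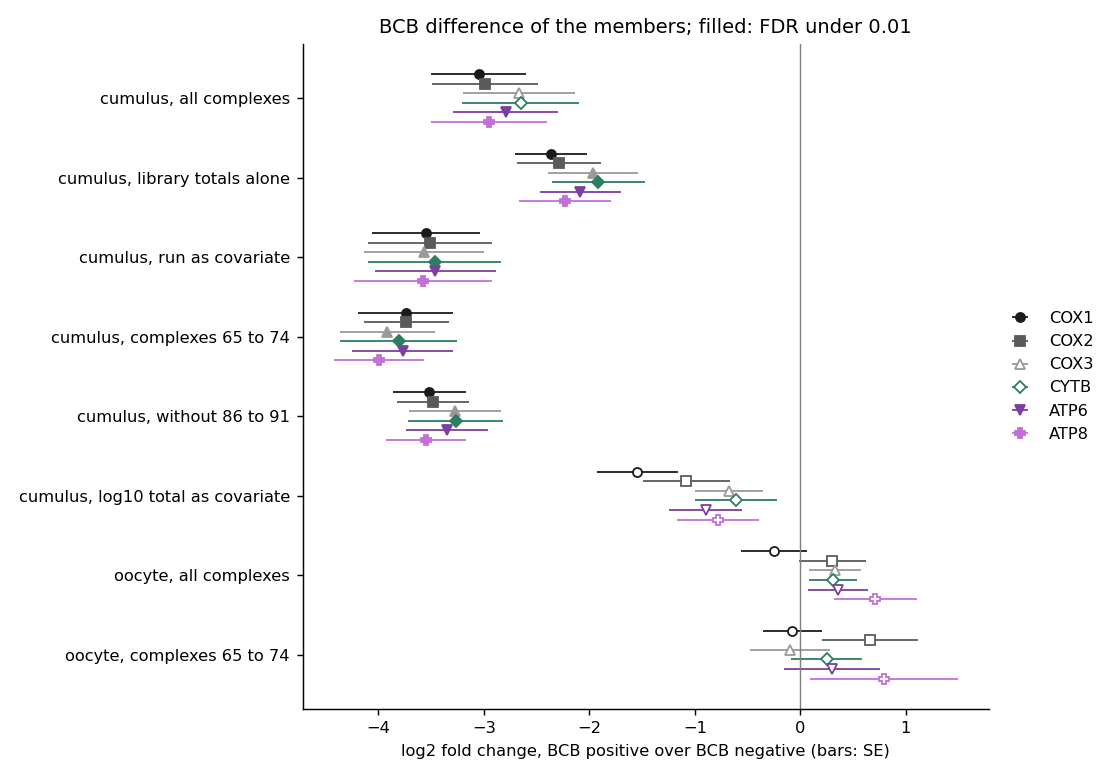
log2 fold change, BCB positive over BCB negative, of each gene under 6 fits in cumulus cells and 2 in oocytes, with bars of 1 SE and filled symbols for an FDR under 0.01. The cumulus values lie between -3.99 and -1.92 in the 5 fits without the library total as a covariate and between -1.55 and -0.61 with it, and the oocyte values lie between -0.25 and 0.79.

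In cumulus cells the CPM of each member was lower where the library total was higher. Pearson's correlation of log2(CPM + 1) with the log10 total over the 19 cumulus libraries ran from -0.85 (COX1) to -0.93 (COX3), with an adjusted permutation p of 2e-05 for each gene over 12 relations, 6 in each compartment, from the smallest p that the permutations can give. Spearman's rho ran from -0.82 to -0.90, and leaving out libraries 66 and 68, the 2 most distant from the median log10 total, gave r of -0.86 to -0.93. Within the 10 BCB negative complexes r ran from -0.75 (COX1) to -0.88 (COX3), and in permutation tests the adjusted p ran from 0.0032 to 0.0225. Within the 9 BCB positive complexes r ran from -0.64 (COX2) to -0.89 (ATP8), and in exact permutation tests COX3, ATP6 and ATP8 had an adjusted p under 0.05. Within the run of complexes 65 to 74, in which the totals also separated the classes, r ran from -0.93 to -0.98.

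CPM has the total in its denominator, so a count unrelated to the total also gives a CPM that falls with it. The permutations do not allow for this, and their p-values above cannot separate a relation from the shared total. The raw counts were therefore set beside CPM. The summed counts of the 6 genes varied 4.38-fold over the 19 cumulus libraries, from 34830 to 152423, while the totals varied 9.45-fold and the share of the 6 genes 15.5-fold. The sum of the member counts itself was higher in BCB negative complexes, with a median of 94788 against 61365, although the ranges overlapped. With the log2 count in place of log2 CPM, r with the total ran from -0.26 (COX1) to -0.53 (ATP8), and ATP8 and COX3 had an adjusted permutation p under 0.05. Within the classes no relation of a member's count with the total passed the test, with r from -0.23 to 0.55 in BCB positive and from -0.46 to 0.14 in BCB negative complexes. The part of the total in the class difference was not tested beyond the covariate above, since the totals themselves differ between the classes.

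**Figure D3:**
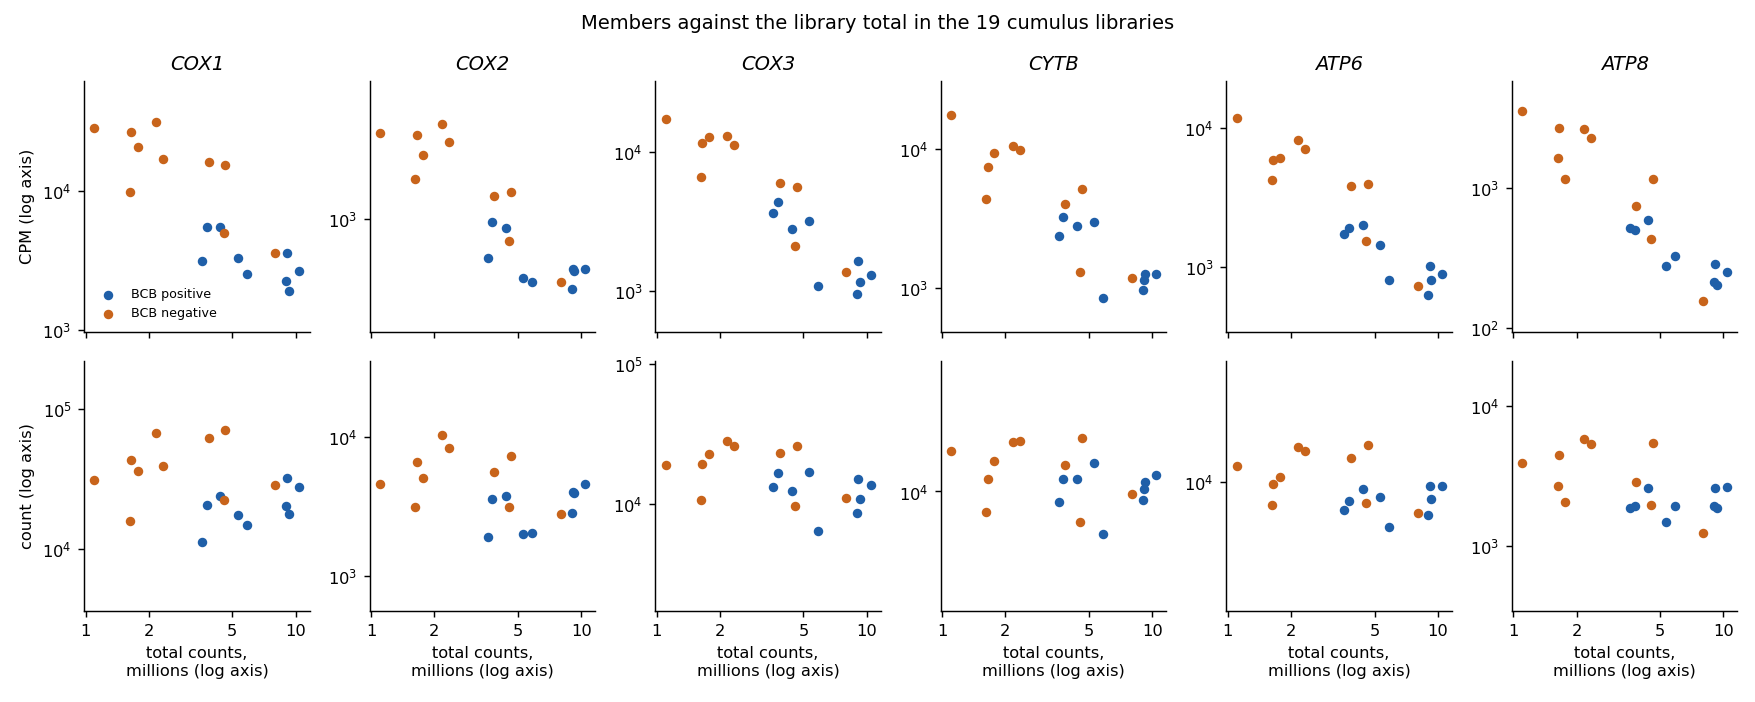
CPM (upper row) and raw count (lower row) of each gene against the total counts of the 19 cumulus libraries, all axes on a log scale, for BCB positive (blue) and BCB negative (orange) complexes. CPM falls from the smallest to the largest libraries, with r from -0.85 to -0.93 over all 19. Within the classes r runs from -0.64 to -0.89 (BCB positive) and from -0.75 to -0.88 (BCB negative). The counts stay within a narrower band, with r from -0.26 to -0.53 over all 19.

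In oocytes no member differed between the BCB classes in edgeR, with 0 of 6 called against 0% of the 12753 genes tested, and 0 of 6 had an unadjusted p under 0.05 in edgeR or a call in DESeq2. COX1 was lowest at 117 CPM, at a median of 346 and highest at 739 CPM in BCB positive oocytes, and 194, 428 and 700 CPM in BCB negative oocytes. The 3 BCB positive oocytes 17, 19 and 24 lay below every BCB negative oocyte, of which oocyte 6 was the lowest, and these 4 are all the oocytes of the run of complexes 6 to 24. The log2 fold change of COX1 was -0.25 (SE 0.31). COX2 ran from 24.4 over 41.8 to 150.3 CPM in BCB positive and from 27.2 over 47.6 to 101 CPM in BCB negative oocytes, with a log2 fold change of 0.30 (SE 0.32). The 2 highest COX2 levels were in the BCB positive oocytes 71 and 72, and without oocyte 71 the log2 fold change was 0.05.

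COX3 ran from 126 over 303 to 519 CPM in BCB positive oocytes and from 95.2 over 235 to 383 CPM in BCB negative oocytes, with a log2 fold change of 0.33 (SE 0.24). CYTB ran from 91.4 over 203 to 415 CPM in BCB positive oocytes and from 94.2 over 187 to 264 CPM in BCB negative oocytes, with a log2 fold change of 0.31 (SE 0.23). For both genes the classes overlapped over most of their range, and oocyte 71 was the highest and oocyte 89 the lowest or the lowest of its class.

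ATP6 ran from 74.8 over 151 to 396 CPM in BCB positive oocytes and from 51.5 over 138 to 175 CPM in BCB negative oocytes, with a log2 fold change of 0.36 (SE 0.28). ATP8 ran from 12.8 over 27.9 to 147 CPM in BCB positive oocytes and from 9.06 over 25.9 to 32.3 CPM in BCB negative oocytes, with a log2 fold change of 0.71 (SE 0.39). Oocyte 71 was far above the others for both genes, and without it the log2 fold changes were 0.08 for ATP6 and 0.10 for ATP8, as against 0.19 for COX3, 0.16 for CYTB and -0.45 for COX1 without the same oocyte. The FDR of the 6 genes ran from 0.889 to 0.944 in edgeR. These values do not show that the classes were alike: the SE of 0.23 to 0.39 leaves room for differences of either sign. The correlation of oocyte levels with the oocyte total ran from -0.20 to 0.21 with no adjusted permutation p under 0.05. Within BCB positive oocytes r was positive for all 6 genes, from 0.22 (ATP8) to 0.41 (COX2), and within BCB negative oocytes it was negative for all 6, from -0.0062 (COX2) to -0.56 (COX3), with no adjusted permutation p under 0.05 in either class and no test of the difference between the classes. Over the 19 oocytes the raw counts rose with the total, with r from 0.52 (ATP8) to 0.71 (COX2).

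The BCB difference was then compared between the compartments in 1 fit of the 38 libraries over the 10281 genes kept in both. This fit did not pair the oocyte and cumulus libraries of a complex. The difference of the contrasts, oocytes minus cumulus cells, ran from 2.84 (COX1, SE 0.54) to 3.69 (ATP8, SE 0.69) on the log2 scale. All 6 genes were called in edgeR, at an FDR of 0.00238 (ATP6) to 0.00314 (CYTB), against 0.506% of all genes tested that differed in this direction and 0.0195% in the other. With the complex as a replicate block the differences ran from 2.38 to 2.82, and 0 of 6 genes were called, at an FDR of 0.0463 to 0.103, where 2 genes were called in all. Without complex 71 or without complex 72, COX2 and ATP6 were called and the other 4 members were not, at differences of 2.59 to 3.56 over the members, and the calls over all genes fell from 54 to 17 (0.165%) in either case. Within the run of complexes 65 to 74 the differences were 3.70 to 4.82 and 5 of the 6 were called, ATP8 being the exception at an FDR of 0.0114, against 0.584% of all genes. In that run the cumulus totals of the classes did not overlap.

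All 6 genes were lower in oocytes than in cumulus cells. The log2 fold change, oocytes over cumulus cells, was -4.76 (SE 0.34) for CYTB, -4.85 (SE 0.31) for COX1, -4.87 (SE 0.34) for COX2, -4.66 (SE 0.33) for COX3, -4.77 (SE 0.33) for ATP6 and -5.26 (SE 0.40) for ATP8. All were called, at an FDR of 7.04e-18 to 6.05e-15 in edgeR, against 42.7% of all genes tested that were lower in oocytes. With the complex as a replicate block all 6 stayed called, at -5.17 to -4.38. With library totals alone as the scaling, the median over all genes was 0.46 in place of 0.00, and the 6 genes were at -4.64 to -4.05.

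Within each of the 19 complexes, each of the 6 genes had a higher CPM in the cumulus cells than in the oocyte. The ratio of cumulus to oocyte CPM was lowest in complex 71, at 1.71 for ATP8, 2.27 for ATP6, 2.50 for COX3, 2.92 for COX2, 3.06 for CYTB and 3.59 for COX1. Among BCB negative complexes it was lowest in complex 88, at 5.22 (CYTB) to 14.2 (ATP8). The median ratio ran from 7.03 (CYTB) to 14.0 (ATP8) in BCB positive complexes and from 30.2 (CYTB) to 70.7 (ATP8) in BCB negative complexes. The cumulus markers in oocyte 71 summed to 136 CPM, near the middle of the oocytes, while oocyte 72, with 3240 CPM of cumulus markers, had the second highest levels of COX2, CYTB, ATP6 and ATP8 among BCB positive oocytes. The part of cumulus RNA in these oocyte levels was not tested.

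No relation was found between the level of a member in an oocyte and its level in the cumulus cells of the same complex. Over 19 complexes Pearson's r of log2(CPM + 1) ran from -0.11 (COX2) to 0.19 (COX1), with an adjusted permutation p of 0.911 for each of the 6 relations, and Spearman's rho ran from -0.06 to 0.15. Within the 9 BCB positive complexes r ran from -0.08 (COX3) to -0.55 (ATP8), and within the 10 BCB negative complexes from 0.04 (COX2) to 0.62 (COX3), where permutation tests gave COX3 a p of 0.0556 and an adjusted p of 0.29. Without the 2 complexes farthest from the median oocyte level, r ran from -0.33 (CYTB) to 0.15 (COX2), and no relation passed.

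The levels of the members were positively correlated with each other in both compartments. In cumulus cells the correlation between the levels of any 2 of them over the 19 libraries ran from 0.923 to 0.984 over 15 pairs, and in oocytes from 0.434 (COX1 with COX3) to 0.971 (ATP6 with ATP8). In oocytes COX1 was at 0.62 with ATP8 and at 0.63 with ATP6, and COX2 was at 0.61 with COX3. Within BCB positive complexes r ran from 0.683 to 0.960 in cumulus cells and from 0.460 to 0.969 in oocytes, and within BCB negative complexes from 0.893 to 0.985 and from 0.596 to 0.992. The values over 19 libraries also hold the class difference of the cumulus cells, all values share the library total, and they are given as a description.

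Ratios of counts within a library do not depend on its total and were used to compare the proportions of the subunit messages. In cumulus cells COX2 stood at 0.156 ± 0.033 counts per count of COX1 (SD, n = 9) in BCB positive and at 0.143 ± 0.040 (SD, n = 10) in BCB negative complexes. COX3 stood at 0.653 ± 0.266 and 0.499 ± 0.128, and CYTB at 0.557 ± 0.196 and 0.393 ± 0.132. ATP6 stood at 0.376 ± 0.087 and 0.308 ± 0.087 per COX1, ATP8 at 0.106 ± 0.026 and 0.093 ± 0.041 per COX1, and ATP8 at 0.287 ± 0.059 and 0.297 ± 0.087 per ATP6. None of these 6 ratios passed an exact permutation test after adjustment over 18 ratio comparisons. The lowest adjusted p of 0.0834 was that of CYTB to COX1, which was 0.49 higher in BCB positive complexes on the log2 scale. A p that misses the threshold does not show that the proportions were alike, and the spread of the 5 ratios to COX1 was 1.82-fold to 3.92-fold among BCB negative complexes.

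In oocytes 3 of the 6 ratios were higher in the BCB positive class, and all 3 have COX1 as their denominator. The cumulus markers in the oocyte libraries had a higher median sum in the BCB positive class, and the classes overlapped, with a lowest, median and highest sum of 56.8, 162 and 3240 CPM in BCB positive and of 79.3, 96.6 and 807 CPM in BCB negative oocytes. Of the 6 cumulus markers tested in oocytes 0 were called in edgeR or DESeq2, with a median log2 fold change of 1.96, and 1, INHBA, named after its value was seen, had an unadjusted p under 0.05, at 3.18 (SE 1.24). The part of cumulus RNA in the oocyte ratios was not tested. CYTB stood at 0.752 ± 0.365 counts per count of COX1 (SD, n = 9) in BCB positive and at 0.451 ± 0.096 (SD, n = 10) in BCB negative oocytes, a log2 difference of 0.64 with an adjusted exact permutation p of 0.029. ATP6 stood at 0.537 ± 0.347 and 0.304 ± 0.069 per COX1, a log2 difference of 0.66 (exact permutation test, adjusted p 0.0393). ATP8 stood at 0.110 ± 0.070 and 0.057 ± 0.015 per COX1, a log2 difference of 0.79 (exact permutation test, adjusted p 0.0358).

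COX2 and COX3 to COX1 were also higher on average in BCB positive oocytes, by 0.52 and 0.73 on the log2 scale, and missed the threshold, at adjusted p of 0.0563 and 0.0574 in the exact permutation test. The ratio of ATP8 to ATP6 differed by 0.12 with an adjusted p of 0.425 in that test. The widest ratios were in BCB positive oocyte 24, which had 2.98 counts of COX3, 1.52 of CYTB, 1.40 of ATP6 and 0.255 of ATP8 per count of COX1. CYTB, COX3 and ATP6 to COX1 were highest in oocytes 17, 19 and 24, the BCB positive oocytes of run 6 to 24. CYTB to COX1 was 0.778 to 1.52 in these and at most 0.698 in the other oocytes. BCB negative oocyte 6 of that run had the highest CYTB to COX1 of its class, at 0.632. For ATP8 to COX1, oocyte 71 of another run was second highest, at 0.198. The part of the run in the class difference was not tested beyond the subsets below. Without complexes 86 to 91 none of the 6 ratios passed, and the log2 differences were 0.51 for CYTB, 0.59 for ATP6 and 0.77 for ATP8 to COX1. Within the run of complexes 65 to 74 they were 0.29, 0.25 and 0.49. The 84 splits of 6 against 3 complexes do not let a single ratio pass after adjustment over 18 comparisons, so the test says nothing about stability there. When each complex was left out in turn, 0 ratios passed without 17, 19, 88, 89 or 91, 1 passed without 24, 65, 71 or 72, and at most 5 passed without 6, 70 or 73.

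**Figure D4:**
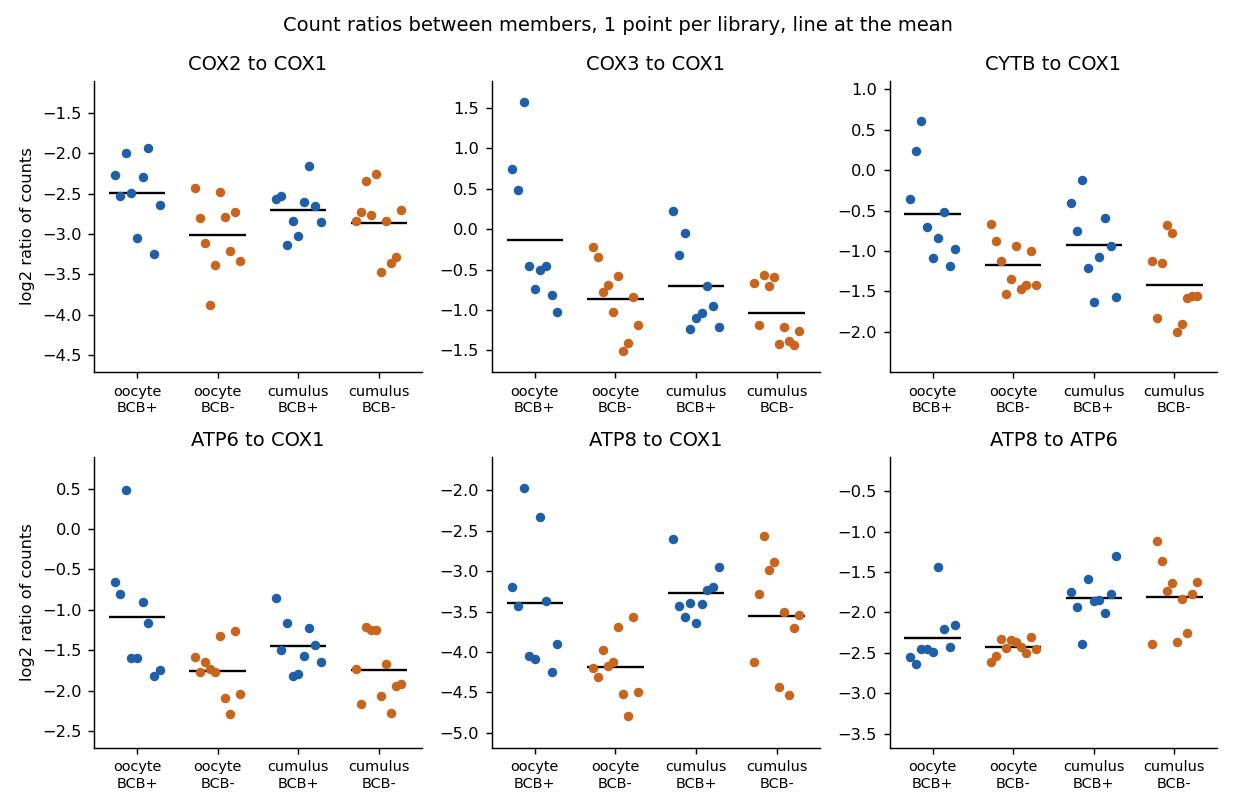
log2 ratio of the counts of 2 genes in each of the 38 libraries, with a line at the group mean, for oocytes and cumulus cells of BCB positive (blue) and BCB negative (orange) complexes. The oocyte ratios of CYTB, ATP6 and ATP8 to COX1 have higher means in the BCB positive class, at 0.752, 0.537 and 0.110 against 0.451, 0.304 and 0.057, with a wider spread there, and ATP8 to ATP6 in BCB negative oocytes lies within 0.163 to 0.202.

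ATP8 to ATP6, the ratio within 1 shared message, differed between the compartments. It was 0.292 ± 0.073 (SD, n = 19) in cumulus cells and 0.196 ± 0.045 (SD, n = 19) in oocytes, and was lower in the oocyte of 18 of 19 complexes, a log2 difference of -0.56 (exact sign-flip permutation test, p 6.49e-05, adjusted p 0.00117). The oocyte ratios of BCB negative complexes were close together, from 0.163 to 0.202, and that of BCB positive oocyte 71 was the highest of the oocytes, at 0.370. COX3 to COX1 was 0.37 higher in oocytes on the log2 scale, in 15 of 19 complexes (exact sign-flip permutation test, adjusted p 0.0281), and CYTB to COX1 was 0.31 higher in 16 of 19 complexes with an adjusted p of 0.0517 in the same exact test. The other 3 ratios had an adjusted p of 0.101 or more. Within complexes 65 to 74 the log2 difference of ATP8 to ATP6 was -0.66, with the oocyte lower in 8 of 9 complexes and an adjusted exact permutation p of 0.211, in a design of 512 sign flips in which a single ratio cannot pass the adjustment. How the counting assigned reads in the overlap of ATP8 and ATP6 is not given in the sources used here, and its part in the ratio was not tested.

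The nuclear genes of the same complexes were then read beside the members. Of 43 nuclear genes of complexes III to V listed, 11 had a symbol in the tables used for names and all 11 were tested. In cumulus cells 0 of 11 were called between the BCB classes in edgeR or DESeq2, 0 had an unadjusted p under 0.05, the median log2 fold change was 0.06 and the largest was 0.23 (UQCRC1, a core subunit of complex III, FDR 0.405 in edgeR). With library totals alone as the scaling, the median over all 12313 genes was 0.46, and 3 of the 11, CYC1, UQCRC1 and COX5A, were called higher in BCB positive complexes, the direction opposite to that of the members. Under that scaling the calls over all genes changed from 5 higher and 64 lower to 1629 higher and 103 lower, and the members were at -2.36 to -1.92. In oocytes 0 of 11 were called, and ATP5F1B, the catalytic subunit of the ATP synthase, at a log2 fold change of 0.23 (SE 0.11), was the only one with an unadjusted p under 0.05.

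Between the compartments 10 of the 11 nuclear genes were lower in oocytes, against 42.7% of all genes, with a median log2 fold change of -1.19 against -4.81 for the 6 members and 0.00 for all genes tested. The 3 with the lowest p were ATP5F1D, a stalk subunit of the ATP synthase, at -2.20 (SE 0.07), ATP5F1B at -2.58 (SE 0.10) and UQCR11, a small subunit of complex III, at -4.33 (SE 0.16). COX5A, a subunit of complex IV named after its value was seen, was at -0.09 (SE 0.09) and was not called. With library totals alone 8 were lower and 1 was higher in oocytes, where 33.4% of all genes were lower and 51.1% higher. The difference of the BCB contrasts between compartments was called for 0 of the 11 nuclear genes in edgeR and DESeq2, with 0 at an unadjusted p under 0.05 and a median of 0.00.

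**Figure D5:**
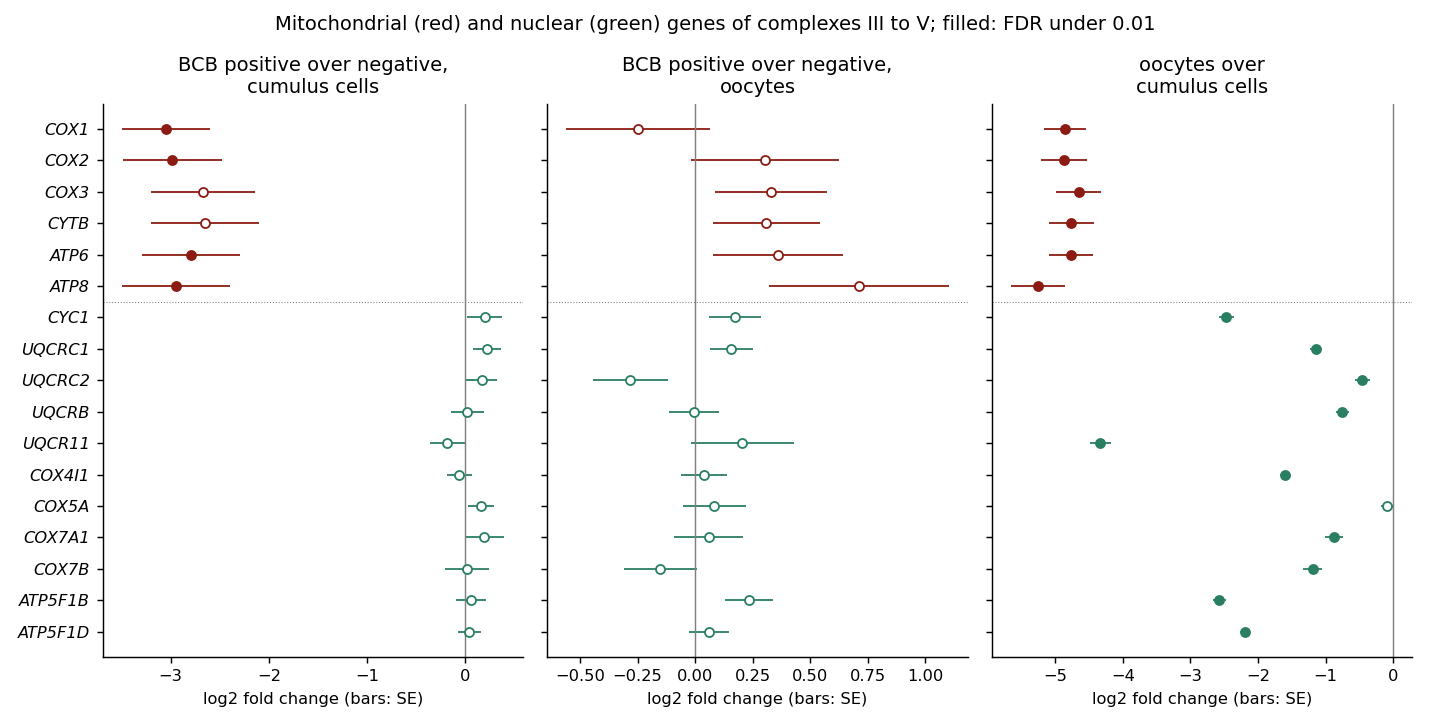
log2 fold changes with bars of 1 SE for the 6 mitochondrial genes (red) and 11 nuclear genes (green) of complexes III to V in cumulus cells, in oocytes and between the compartments, with filled points for an FDR under 0.01. The 6 mitochondrial genes lie between -3.05 and -2.65 in cumulus cells, where the nuclear genes lie between -0.18 and 0.23. The horizontal scales differ between the panels.

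Other nuclear genes that mitochondrial messages depend on were read from lists of the same kind. Of 25 assembly factors of complexes III to V listed, 12 were tested in cumulus cells and 0 were called between the BCB classes in edgeR, with 7 at an unadjusted p under 0.05 against 2299 of all 12313 genes tested, a median log2 fold change of 0.34 and 1 of the 364 calls of DESeq2 among all genes, COX19, a copper chaperone of complex IV, at 0.46. Of 12 genes of mitochondrial transcription and DNA upkeep listed, 5 were tested, with 0 calls in edgeR and DESeq2, 0 at an unadjusted p under 0.05 and a median of 0.27. Of 16 genes of mitochondrial RNA processing and stability listed, 5 were tested, with 0 calls in edgeR and DESeq2, 1 at an unadjusted p under 0.05 and a median of 0.11. With library totals alone 7, 1 and 2 genes of these lists were called higher in BCB positive complexes, where 13.2% of all genes were. In oocytes none of these genes was called or had an unadjusted p under 0.05 in edgeR, and none was called in DESeq2.

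Between the compartments the upkeep genes did not move as 1 group. TFAM, which packages mitochondrial DNA and starts its transcription, was at -3.71 (SE 0.13) in oocytes over cumulus cells, while TEFM, an elongation factor of the mitochondrial RNA polymerase, was at 2.65 (SE 0.13). These 2 were named after their values were seen, as were TRMT10C, a subunit of the enzyme that cuts mitochondrial transfer RNAs out of the long transcripts, at -1.58 (SE 0.10), and POLRMT, the mitochondrial RNA polymerase, at 0.02 (SE 0.17), which was not called. In all, of 5 upkeep genes 3 were higher and 1 lower in oocytes, of 5 RNA processing genes 0 were higher and 4 lower, and of 11 assembly factors 4 were higher and 5 lower. Of all genes tested 42.8% were higher and 42.7% lower, so the counts of assembly factors were near the share of any gene. With library totals alone, which moved the median of all genes to 0.46 and the calls over all genes to 51.1% higher and 33.4% lower, the assembly factors stood at 5 higher and 4 lower and the RNA processing genes at 1 higher and 3 lower, a shift shared with all genes.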

How the data were processed

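Poly(A) RNA of single oocytes and of their cumulus cells was primed with oligo(dT), amplified as full-length cDNA and sequenced from Nextera libraries. The authors aligned reads to the cattle genome with HISAT2 (2.1.0 in the submitters' processing notes), filtered and removed duplicates, and deposited raw counts per Ensembl gene from featureCounts (1.6.0, build ARS-UCD1.2). The strand setting is not given in the sources used here. Amplified cDNA without molecular tags makes counting error a lower limit of the error.

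Genes were kept where 9 or more of a compartment's 19 libraries exceeded a CPM of 2, and were tested with edgeR 4.0.16 (quasi-likelihood test, TMM scaling, Benjamini-Hochberg adjustment over all genes kept, FDR threshold 0.01) in R 4.3.3, separately in cumulus cells and oocytes, and in 1 fit of 38 libraries with 4 groups for the compartments and the difference of the contrasts. SE is the log2 fold change divided by the square root of F. DESeq2 1.42.0 was an alternative, as were other scalings, filters, covariates, subsets and left-out libraries. The scripts were tested on simulated data. Correlations used log2(CPM + 1) and 100000 permutations, or every permutation for fewer than 10 libraries. Ratios used log2 of counts plus 0.5, exact permutation tests over 92378 splits or 524288 sign flips, with means and SD of the plain ratios beside them (SciPy 1.17.1).

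Oocyte and cumulus libraries are paired by the complex number in the titles, since both come from 1 complex. Their deviations from the group means correlated at -0.02 to 0.21 over 19 pairs, with 5 over 0.1. The median was 0.077, against -0.0043 between complexes of the same class. Of the 19 oocytes, 9 correlated best with their own cumulus cells among those of their class. Symbols of nuclear genes came from supplementary tables that are shortened and ordered by p, which name 4934 of the 27607 genes. Named were all 6 members, the 3 nuclear subunit genes of lowest p among those called in each direction and comparison, the 2 of lowest p called in each other list in cumulus cells, and the 5 genes most like and 3 least like the members. The members and lists were chosen with earlier results of these data known.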

Additional observations from a re-analysis of the deposited data

Results flagged for a closer look

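The level of ATP6 in the BCB positive oocyte 71 was 396.4 CPM, against 230.5 CPM in the next oocyte of its class, and that of ATP8 was 146.6 CPM against 50.1 CPM. In the same oocyte the log2 ratio of ATP8 to ATP6 was -1.44, against -2.15 in the next. In each case the gap to the nearest oocyte was larger than Dixon's critical share of the range of the 9 oocytes. Of 48 groups of values examined, 3 had such a sample, and chance marks about 1 group in 20. The cumulus markers of oocyte 71 summed to 136 CPM. Their part in these levels was not tested.

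The BCB difference of each member differed between the 2 compartments, by a test of the difference itself in a fit that did not pair the libraries of a complex. Oocytes minus cumulus cells, it was 2.84 for COX1, 3.33 for COX2, 3.04 for COX3, 2.999 for CYTB, 3.19 for ATP6 and 3.69 for ATP8 on the log2 scale, at an FDR of 0.00238 to 0.00314 in edgeR. None of the 6 was called once the complex was a block, so the calls rest on the fit without pairing. In that fit 2 of the 6 were called without complex 71 or without complex 72.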

How the results depend on the processing

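The direction of the 6 cumulus differences held under every alternative run. The number of members called there was 4 and became 0 with the log10 library total as a covariate, and 0 to 6 when 1 library was left out. It was 3 with no filter on low counts, where ATP8 lost its call, and 4 with DESeq2's size factors in edgeR, with scaling that left out the mitochondrial genes and with a stricter filter. It was 6 at an FDR of 0.05, with DESeq2, with calls shared by DESeq2 and edgeR's likelihood-ratio test, with library totals alone, with the run as a covariate, within complexes 65 to 74 and without complexes 86 to 91. With the complex as a replicate block 0 of the 6 differences of the contrasts passed, and 2 passed without complex 71 or 72, while the block changed no other call reported here. The nuclear subunit genes called in cumulus cells went from 0 to 3 with library totals alone. With counts in place of CPM, 2 cumulus and 6 oocyte relations with the total passed. Of the ratios, 0 in oocytes passed within complexes 65 to 74 and 0 without complexes 86 to 91, and 0 passed between the compartments within 65 to 74, where too few rearrangements exist for a single ratio to pass. When 1 complex was left out, 0 to 1 ratios passed in cumulus cells, 0 to 5 in oocytes and 1 to 3 between the compartments.

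Values that turned direction were below the threshold in the reported analysis, except for cumulus relations with the total once counts were read within a class. There ATP8, at -0.92 with CPM and -0.53 with counts over 19 libraries, was at 0.33 in BCB positive complexes. COX1, at -0.85 with CPM, was at 0.55 in BCB positive and 0.14 in BCB negative complexes. In BCB positive complexes COX2 (0.51), CYTB (0.051) and ATP6 (0.24) were positive too. Within complexes 65 to 74 the oocyte log2 fold change of COX3 was -0.10, the relation of oocyte levels with the total was 0.25 (COX3), 0.40 (CYTB), 0.26 (ATP6) and 0.16 (ATP8), the cumulus differences in ratio to COX1 were -0.078 (COX2), -0.22 (COX3), -0.035 (ATP6) and -0.36 (ATP8), that of COX3 to COX1 in oocytes was -0.060, and that of COX2 to COX1 between the compartments was -0.16. Without complexes 86 to 91 the cumulus ratios to COX1 were -0.041 (COX2) and -0.029 (ATP8). Within BCB positive oocytes the relation with the total was 0.31 (COX3), 0.29 (CYTB), 0.31 (ATP6) and 0.22 (ATP8), and within BCB negative oocytes -0.22 (COX1) and -0.0062 (COX2). With counts the oocyte relations were 0.61 (COX3), 0.70 (CYTB), 0.63 (ATP6) and 0.52 (ATP8). Between oocyte and own cumulus cells, r of residuals from the class means was -0.040 (COX1), 0.046 (CYTB), 0.16 (ATP6) and 0.090 (ATP8), and Spearman's rho was 0.016 (COX2) and -0.047 (COX3). Without complex 71 or 72, r was -0.013 to 0.0096 (CYTB), 0.056 to 0.14 (ATP6) and -0.0078 to 0.12 (ATP8). When 1 complex was left out, the log2 difference ran from -0.084 to 0.058 for ATP8 to ATP6 in cumulus cells and from -0.043 to 0.083 for COX2 to COX1 between the compartments. The median difference of ATP8 to ATP6 in oocytes was -0.016. The cause of these changes was not tested. The fits without complex 71 or 72, the counts in place of CPM and the left-out complexes in ratios were chosen after seeing the data. The smaller cumulus totals of BCB negative complexes limit what the class comparison can separate.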

Other observations

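Of the 4479 genes with a symbol tested in cumulus cells other than the 13 protein-coding genes of mitochondrial DNA, those whose levels followed the mean of the 6 members most closely over the 19 libraries were ADAMTS5 (r 0.93), MYT1L (0.92), MYOG (0.92), ADCYAP1R1 (0.92) and ADPRM (0.90). ADAMTS5 is a secreted protease of the extracellular matrix, MYT1L and MYOG are transcription factors, ADCYAP1R1 is the receptor of the peptide PACAP and ADPRM is a nucleotide hydrolase. MYT1L, for example, ran from 553 over 1288 to 1673 CPM (lowest, median and highest) in cumulus cells of BCB positive complexes and from 826 over 4004 to 5449 CPM in those of BCB negative complexes. Within the 9 BCB positive complexes r was lower, at 0.84 for ADAMTS5, 0.62 for MYOG, 0.61 for ADCYAP1R1, 0.52 for MYT1L and 0.35 for ADPRM, and within the 10 BCB negative complexes it ran from 0.86 to 0.93. The 5 genes had correlations of -0.92 to -0.96 with the log10 library total. The levels of BET1L (r -0.94), TSEN34 (-0.94) and UBE2Q1 (-0.93) ran most clearly opposite to the members. Their correlations with the log10 library total were 0.83 to 0.93. After TMM scaling their log2 fold changes, BCB positive over BCB negative, were 0.35, 0.26 and 0.11, at an FDR of 0.172, 0.292 and 0.561 in edgeR. The correlations over 19 libraries hold the class difference as well as the shared library total, and symbols came from tables that are shortened and ordered by p, so closer genes without a symbol here may exist. The members themselves were at 0.972 to 0.996 and the 7 complex I genes at 0.968 to 0.984.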
